A study of Mus musculus with 14 samples.

Results

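The hepatocyte-enriched transcription factors examined here are HNF4A (gene Hnf4a), the Onecut factors HNF6 (Onecut1) and OC2 (Onecut2), the forkhead factors Foxa1, Foxa2 and Foxa3, and the CCAAT/enhancer binding proteins Cebpa and Cebpb. They were found by matching the RefSeq accession of each array probe to the gene symbols, which gave 8 genes and 9 probes out of 19751 genes and 39429 probes that carried no control sequence. Foxa2 had 2 probes and the other genes had 1 each. Liver of CD-1 mice was compared before puberty (3 and 4 wk) and in young adulthood (8 wk), and the questions were which genes change with age in each sex and which differ between the sexes. Groups are named by sex and age, so that M3, M4 and M8 are male liver and F3, F4 and F8 are female liver at 3, 4 and 8 wk. The labels give no treatment and no genotype other than the strain. Each group was represented by 2 pools of liver RNA, with 5 mice per pool at 3 wk and 6 mice per pool at 4 and 8 wk, so the spread between single mice was not measured. Pools were hybridized against each other on Agilent mouse arrays in 7 comparisons, of the sexes at each age (M3/F3, M4/F4 and M8/F8), of male ages (M8/M3 and M8/M4) and of female ages (F8/F3 and F8/F4), with 2 arrays per comparison and the dyes exchanged between them. Values are log2 expression ratios on a whole-liver sample, male over female or 8 wk over the younger age, in which fewer cells of a type and less RNA per cell cannot be told apart.

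HNF4A is a nuclear receptor that binds many promoters of hepatocyte genes. The forkhead factors can open compacted chromatin and are needed early in liver development, and the Onecut factors act in hepatocytes and in the formation of bile ducts. C/EBP alpha is a basic leucine zipper factor that is known for restraining proliferation and for supporting glucose and nitrogen metabolism in the adult liver, while C/EBP beta is a relative that is induced in the acute phase response and in regeneration. These factors are known to bind each other's regulatory regions.

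Because the factors are known to bind each other's genes, the 250 bases before the transcription start were searched for short motifs of each family on both strands. Windows from the RefSeq table of build GRCm38.p6 were available for 7 of the 8 genes (10 windows, since Hnf4a and Foxa2 have several starts). The letters searched were CAAAGTCCA for HNF4, ATCAATA for Onecut factors, TGTTTAC for forkhead factors, TTGCGCAA for C/EBP and TGACGTCA for the cAMP response element, with CCAAT and TATAAA as general promoter elements. Onecut letters were found in the upstream Hnf4a window and in the outermost Foxa2 window, and they were present in 1.86% of the 32851 windows of all genes. Forkhead letters were found in the Foxa1 window and in 3.17% of all windows. The letters for HNF4, C/EBP and the cAMP response element, present in 0.384%, 0.164% and 1.55% of all windows, were in none of the 10 windows. A match to these letters is not a binding site by itself. The windows with family letters, the other Hnf4a window for comparison, and those of both C/EBP genes, whose ratios changed most clearly with age, are shown 5′ to 3′ on the strand of the gene, with every match to the searched letters in capitals.
Hnf4a, upstream start, chr2:163506607-163506856, plus strand: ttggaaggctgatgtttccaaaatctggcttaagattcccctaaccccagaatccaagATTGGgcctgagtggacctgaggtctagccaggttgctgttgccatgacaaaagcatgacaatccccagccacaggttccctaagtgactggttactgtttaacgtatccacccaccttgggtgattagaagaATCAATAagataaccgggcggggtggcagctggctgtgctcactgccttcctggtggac
Hnf4a, downstream start, chr2:163546905-163547154, plus strand: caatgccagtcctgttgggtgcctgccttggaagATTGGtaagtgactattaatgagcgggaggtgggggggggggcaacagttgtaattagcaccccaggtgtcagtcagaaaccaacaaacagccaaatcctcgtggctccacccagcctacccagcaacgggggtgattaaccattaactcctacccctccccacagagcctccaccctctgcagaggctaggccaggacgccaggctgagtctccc
Foxa2, outermost start, chr2:148046970-148047219, minus strand: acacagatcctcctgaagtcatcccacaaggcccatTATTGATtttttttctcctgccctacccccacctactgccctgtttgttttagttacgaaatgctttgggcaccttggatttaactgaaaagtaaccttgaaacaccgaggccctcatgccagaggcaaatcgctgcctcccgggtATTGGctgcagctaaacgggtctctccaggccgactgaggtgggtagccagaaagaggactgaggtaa
Foxa1, chr12:57546112-57546361, minus strand: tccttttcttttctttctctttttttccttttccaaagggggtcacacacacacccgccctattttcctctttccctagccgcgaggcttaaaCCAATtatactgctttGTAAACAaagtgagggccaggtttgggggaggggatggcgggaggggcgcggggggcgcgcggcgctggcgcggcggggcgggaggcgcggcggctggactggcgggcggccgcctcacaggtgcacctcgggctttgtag
Cebpa, chr7:35119043-35119292, plus strand: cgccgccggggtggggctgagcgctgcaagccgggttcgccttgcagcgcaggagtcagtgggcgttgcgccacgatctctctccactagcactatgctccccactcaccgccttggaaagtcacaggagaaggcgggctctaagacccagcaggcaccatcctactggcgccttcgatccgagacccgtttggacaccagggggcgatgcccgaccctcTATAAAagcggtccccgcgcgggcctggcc
Cebpb, chr2:167688665-167688914, plus strand: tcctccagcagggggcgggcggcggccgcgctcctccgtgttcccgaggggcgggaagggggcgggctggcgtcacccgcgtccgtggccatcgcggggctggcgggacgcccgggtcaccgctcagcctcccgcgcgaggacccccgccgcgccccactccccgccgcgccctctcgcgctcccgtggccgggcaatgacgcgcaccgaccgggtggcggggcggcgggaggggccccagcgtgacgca

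In the upstream Hnf4a window the Onecut letters lay 59 to 53 bases before the start, and in the outermost Foxa2 window they lay on the opposite strand, 214 to 208 bases before it. The forkhead letters of Foxa1 were on the opposite strand, 141 to 135 bases before the start, next to a CCAAT element on the same strand as the gene. The Cebpa window held a TATAAA element 30 to 25 bases before the start. The Cebpb window held no match, and its bases were 81.6% G or C, against a median of 52.4% over all windows. The array data do not tell which start of Hnf4a or Foxa2 was used.

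All 9 probes were well above background, which is how the scanner software flags a spot clearly brighter than its surroundings, in both channels of all 14 arrays, so every gene entered every test. Across the arrays 55.2% to 77.2% of spots were well above background in a channel, and no spot was saturated. The sex labels were borne out by Xist, at -5.32, -5.95 and -6.65, and Ddx3y, at 6.56, 6.29 and 6.58, in M3/F3, M4/F4 and M8/F8. The 10 hepatocyte markers examined, among them Alb and Ttr, were well above background in every channel. Onecut1 was the dim member, with signals of 21.6 to 104 intensity units, and the signals of the other genes ranged from 2030 (the second Foxa2 probe) to 65800 (Hnf4a). Levels of different probes cannot be ranked by signal, so the signals only show how far each probe was from background.

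Ratios were called at a Benjamini-Hochberg adjusted p below 0.05 in limma together with a change of more than 1.5-fold in either direction. Of the 8 genes, 1 (Cebpb, lower in males) was called in M3/F3, where 0.517% of 13338 tested genes were called and 0.337% were lower in males. None was called in M4/F4, where the share over all tested genes was 1.58%. In M8/F8 1 gene (Onecut2, lower in males) was called, against 6.4% of tested genes called and 3.74% lower in males. Cebpb was the only gene of the 8 called with age in males, and it was up regulated in M8/M3, against 17.8% of tested genes called and 7.81% up regulated, and in M8/M4, against 10.8% called and 4.44% up regulated. In female liver none of the 8 was called in F8/F3 or F8/F4, where 11.7% and 6% of tested genes were. At an unadjusted p below 0.05, limma gave 6 of the 8 in F8/F3 and 4 in F8/F4, where 51.8% and 39.3% of tested genes passed. The same threshold gave 3 in M8/M3 and 2 in M8/M4, against 60% and 47.8% of tested genes. For the sex comparisons it gave 1 at 3 wk, 1 at 4 wk and 2 at 8 wk, against 11.8%, 21.1% and 39.9%. Without the fold threshold 2 were higher at the adjusted p in F8/F3, as were 17% of tested genes. Neither test of the sex by age interaction called any of the 8, against 3.35% of tested genes for M8/M3 minus F8/F3 and 1.31% for M8/M4 minus F8/F4, while 2 had an unadjusted p below 0.05 in the former and none in the latter, against 26.2% and 17.6% of tested genes. The median log2 ratio of the 8 genes lay between -0.061 and 0.19 in the 7 comparisons, beside medians of all tested genes between -0.0012 and 0.019.

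**Figure D1:**
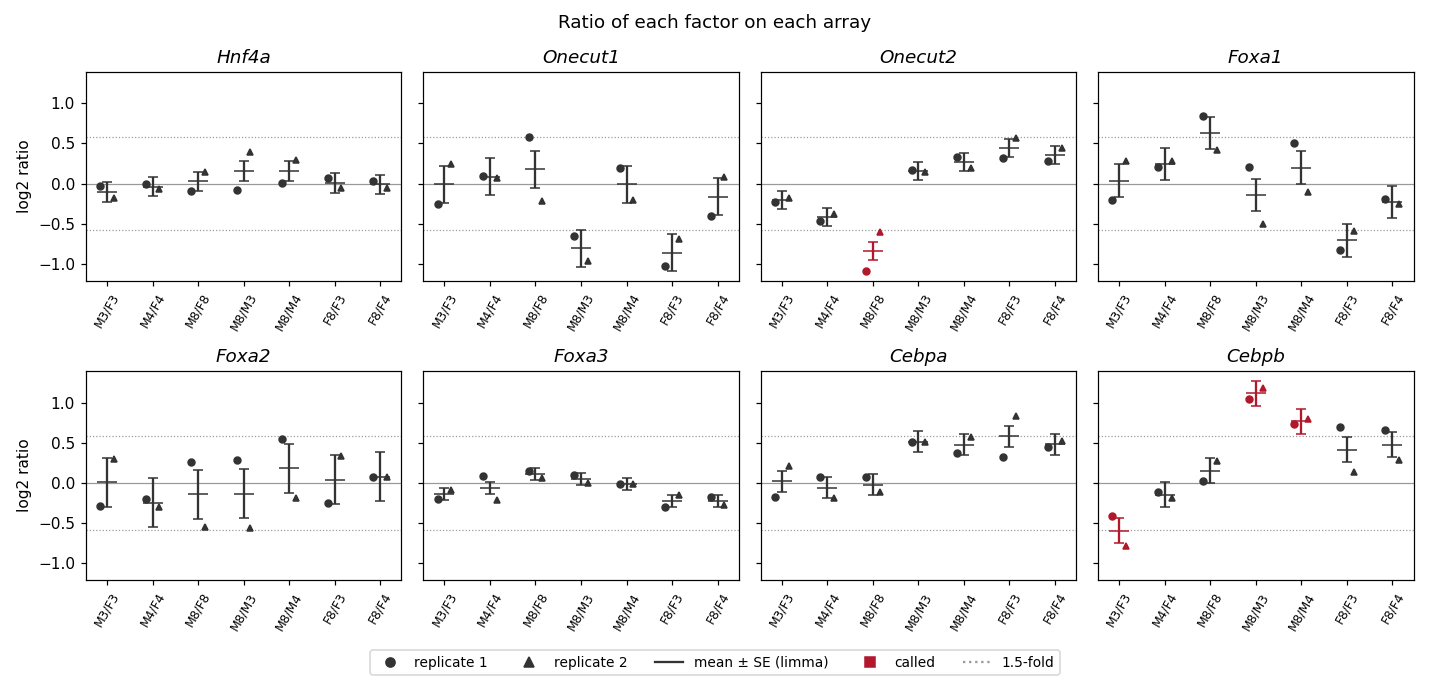
Log2 expression ratio (vertical axis) of the 8 factors in the 7 comparisons (horizontal axis). Circles and triangles are the arrays of replicate 1 and replicate 2, the horizontal mark with its bar is the mean ± SE from limma, dotted lines mark a ratio of 1.5-fold, and red marks the 4 ratios that were called. Cebpb lies above 1 on both M8/M3 arrays, Onecut2 is below 0 on all sex comparison arrays, and the replicates of Foxa2 lie on opposite sides of 0 in 5 of the comparisons.

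Hnf4a differed little between any of the groups. Its ratios on the sex comparison arrays were -0.033 and -0.18 in M3/F3, -0.011 and -0.065 in M4/F4, and -0.096 and 0.15 in M8/F8. The age comparisons gave -0.084 and 0.40 in M8/M3 and 0.011 and 0.30 in M8/M4 for males. For females the F8/F3 arrays gave 0.073 and -0.057 and the F8/F4 arrays 0.036 and -0.053. The replicates spanned 0 in 4 of the 7 comparisons, and the mean ratio farthest from 0 was 0.16 (SE 0.12, n = 2 arrays, limma adjusted p = 0.52) in M8/M3. The 95% confidence interval of that ratio ended at 0.44, below the 1.5-fold threshold, and so did the interval of every other comparison of Hnf4a. Of 12305 genes that were above background in all channels, 10.2% had a smaller range of group levels than Hnf4a.

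Onecut1 had its highest levels at 3 wk in both sexes. In M8/M3 the arrays gave -0.65 and -0.96, and in F8/F3 they gave -1.03 and -0.70, so that all 4 arrays against 3 wk were below 0. The mean fell short of the adjusted threshold in limma, at -0.81 (SE 0.23, adjusted p = 0.0651, n = 2) in M8/M3 and -0.86 (SE 0.23, adjusted p = 0.0524, n = 2) in F8/F3, the latter being a ratio of 0.55. Against 4 wk no such difference was seen, with 0.19 and -0.20 in M8/M4 and -0.40 and 0.078 in F8/F4. The sex comparisons had replicates on opposite sides of 0 in M3/F3 (-0.26 and 0.24) and M8/F8 (0.58 and -0.22), and 0.093 and 0.072 in M4/F4. When p-values were adjusted over the probes above background only, Onecut1 passed in both 3 wk comparisons (limma adjusted p = 0.0468 in M8/M3 and 0.0376 in F8/F3). With normexp background correction and loess, on the other hand, the ratio was -0.29 for M8/M3 and -0.52 for F8/F3, the latter with an adjusted p of 0.0182 in limma but under the fold threshold, so the size of the ratio of this dim probe depended on that setting.

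Onecut2 was lower in male than in female liver on all 6 sex comparison arrays. The ratios were -0.23 and -0.18 in M3/F3, -0.46 and -0.38 in M4/F4, and -1.09 and -0.60 in M8/F8. The mean was -0.21 (limma adjusted p = 0.315) at 3 wk, -0.42 (adjusted p = 0.0525) at 4 wk and -0.84 (SE 0.11, adjusted p = 0.00392, n = 2) at 8 wk, when female liver had 1.80-fold more signal than male liver. The sex ratio at 8 wk minus that at 3 wk was -0.64 (SE 0.16, limma adjusted p = 0.0834), which did not pass the adjusted threshold, and the sex ratio at 8 wk minus that at 4 wk was -0.42 (adjusted p = 0.354).

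The age comparisons of Onecut2 were all above 0. In females the arrays gave 0.31 and 0.57 for F8/F3 and 0.28 and 0.44 for F8/F4. In males they gave 0.17 and 0.15 in M8/M3 and 0.33 and 0.20 in M8/M4. In limma F8/F3 passed the adjusted p but not the fold threshold, with a ratio of 1.36 (log2 0.44, adjusted p = 0.0442), while F8/F4 (0.36, adjusted p = 0.0893), M8/M4 (0.27, adjusted p = 0.19) and M8/M3 (0.16, adjusted p = 0.479) did not pass. The interaction terms of Onecut2 were -0.29 (adjusted p = 0.413) against 3 wk and -0.092 (adjusted p = 0.94) against 4 wk, so the age changes of the sexes were not shown to differ. Each term estimates the same quantity as the matching difference of sex ratios (-0.64 and -0.42), but from the age arrays. The estimates from the sex arrays were larger in size.

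If arrays of one replicate number used the same pools, which the labels do not state, the 2 replicates of M8/F8 can be checked against the other arrays, since the sex ratio at the younger age and the age ratios of both sexes together imply a sex ratio at 8 wk. For replicate 2 the direct ratio of Onecut2 (-0.60) lay close to the implied ones of -0.61 (by way of 3 wk) and -0.62 (by way of 4 wk). For replicate 1 the direct ratio was -1.09 while the implied ratios were -0.38 and -0.41, gaps that were larger than those of 99.8% of 12305 genes. The M8/F8 array of replicate 1 therefore stood apart from the other arrays for this gene, and the mean implied ratios were -0.49 and -0.51, or 1.41-fold and 1.43-fold lower in males. The call of Onecut2 in M8/F8 was lost when the pools shared between comparisons were entered as a covariance (adjusted p = 0.113), and it was retained when any single array was left out, at -0.59 without replicate 1 of M8/F8.

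Foxa1 was lowest in adult female liver. The sex comparisons gave -0.20 and 0.28 in M3/F3, 0.20 and 0.28 in M4/F4, and 0.84 and 0.41 in M8/F8, where both arrays were higher than either M4/F4 array. The age ratios were -0.83 and -0.59 for F8/F3 and -0.20 and -0.26 for F8/F4, against 0.21 and -0.50 in M8/M3 and 0.50 and -0.11 in M8/M4. All 4 female arrays were below 0 and the male replicates were on opposite sides of it. In limma neither M8/F8 (log2 0.63, a ratio of 1.55, SE 0.20, adjusted p = 0.096) nor F8/F3 (-0.71, SE 0.20, adjusted p = 0.0658) passed. Both passed with the shared pools as a covariance (adjusted p = 0.0407 and 0.0266) and with normexp and loess (adjusted p = 0.0461 and 0.0379). The implied sex ratios at 8 wk of Foxa1 were 0.60 and 0.67, near the direct one. The male and female age changes were not shown to differ, as the interaction against 3 wk was 0.56 (95% confidence interval -0.12 to 1.25, limma adjusted p = 0.371).

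Foxa2 varied between the pools of a group more than between the groups. The replicates of the brighter probe were -0.29 and 0.30 in M3/F3 and 0.26 and -0.55 in M8/F8. Against the younger ages they were 0.29 and -0.57 for M8/M3, 0.55 and -0.19 for M8/M4 and -0.25 and 0.33 for F8/F3. In M4/F4 they were -0.20 and -0.30, while F8/F4 had 0.070 and 0.077. The other Foxa2 probe gave the same sign on 14 of 14 arrays, with r = 0.955 between the probes over the 14 arrays, which share pools. The spread was thus found by both probes. The implied sex ratios at 8 wk (0.25 and -0.59 by way of 3 wk) were close to the direct ones of the same replicate, so arrays of one replicate number gave like values. With a SE of 0.31 in limma, no ratio of the brighter probe passed, the smallest adjusted p being 0.765 in M4/F4. No ratio of the other probe passed either, with a smallest limma adjusted p of 0.639 in M8/M4. The intervals of Foxa2 reached past 1.5-fold in each comparison, and a difference of that size was not detectable here.

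Foxa3 had the smallest range of group levels of the forkhead genes. In F8/F3 its arrays gave -0.30 and -0.15 and in F8/F4 -0.18 and -0.28, all below 0, with means of -0.23 in both (limma adjusted p = 0.107 and 0.101). The male age ratios were 0.093 and -0.0053 in M8/M3 and -0.017 and -0.022 in M8/M4. The sex ratio was below 0 on both arrays at 3 wk (-0.20 and -0.089), on opposite sides at 4 wk (0.089 and -0.21) and above 0 on both arrays at 8 wk (0.15 and 0.063). None of these passed, and all 95% confidence intervals lay within 1.5-fold.

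Cebpa was higher at 8 wk than at the younger ages by a similar amount in both sexes. The 8 age arrays gave 0.51 and 0.51 in M8/M3 and 0.37 and 0.58 in M8/M4 for males, with F8/F3 at 0.33 and 0.83 and F8/F4 at 0.44 and 0.51 for females, all of them above 0. The means corresponded to ratios of 1.43 in M8/M3 (limma adjusted p = 0.0423), 1.39 in M8/M4 (adjusted p = 0.0557), 1.49 in F8/F3 (adjusted p = 0.0275) and 1.39 in F8/F4 (adjusted p = 0.0541), so that the 3 wk comparisons passed the adjusted p and none reached the fold threshold. The F8/F3 ratio of Cebpa ranged from log2 0.36 to 0.80 when single arrays were left out. It was 0.80, past the fold threshold, without replicate 1 of F8/F3, which leaves 1 array in that comparison. Without a fold threshold the genes of the 8 that were higher in M8/M3 were Cebpa and Cebpb, against 21.7% of tested genes. In F8/F3 they were Cebpa and Onecut2. The sex ratios were -0.17 and 0.21 at 3 wk, 0.072 and -0.19 at 4 wk, and 0.071 and -0.12 at 8 wk, on opposite sides of 0 at each age, and their 95% confidence intervals lay within 1.5-fold. The difference between the age changes of the sexes was -0.065 (95% confidence interval -0.50 to 0.37) against 3 wk and -0.0041 (-0.44 to 0.43) against 4 wk.

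Cebpb had the largest change of the 8 genes. Its ratios were 1.05 and 1.19 in M8/M3 and 0.73 and 0.80 in M8/M4. In limma the means were 1.12 (SE 0.16, adjusted p = 0.00455, n = 2) and 0.77 (SE 0.16, adjusted p = 0.0193, n = 2), an up regulation of 2.17-fold and 1.70-fold in male liver. Female liver had ratios of 0.69 and 0.13 for F8/F3 and 0.66 and 0.29 for F8/F4, all above 0, with means of 0.41 (adjusted p = 0.145) and 0.47 (adjusted p = 0.102) that did not pass. The interaction was 0.71 (SE 0.22, limma adjusted p = 0.144) against 3 wk and 0.29 (SE 0.22, adjusted p = 0.656) against 4 wk, so a difference between the sexes was not shown. The M8/M3 call was lost without its replicate 2 (0.99, adjusted p = 0.053), and the M8/M4 call was lost without replicate 1 (0.85, adjusted p = 0.0882) or replicate 2 (0.68, adjusted p = 0.157), settings that leave 1 array in the comparison, whose spread is then taken from the other comparisons.

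Cebpb was lower in male than in female liver at 3 wk. The M3/F3 arrays gave -0.41 and -0.79 and the mean was -0.60 (SE 0.16, limma adjusted p = 0.0463, n = 2), or 1.52-fold lower. At 4 wk the ratios were -0.12 and -0.19, and at 8 wk they were 0.024 and 0.27, so both arrays at 8 wk were above 0. The sex ratio at 8 wk minus that at 3 wk was 0.75 (SE 0.22, limma adjusted p = 0.125). The M3/F3 call lay at the threshold. It was lost with the replicate number as a block (adjusted p = 0.0538), with slides as blocks (adjusted p = 0.0647), and when any array was left out other than replicate 1 of M3/F3 and the F8/F3 arrays, with adjusted p-values from 0.0642 to 0.373 in those 11 settings.

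Of the 10 hepatocyte markers, 3 were lower and 1 was higher in M8/M3 (Ahsg at -1.25, Alb at -0.71, Trf, named after its value was seen, at -0.64, and Serpina1a at 0.83), and 2 were lower in M8/F8 (Ahsg at -0.79 and Hpd at -0.76). The replicates of Ahsg lay far apart, at -1.83 and -0.66 in M8/M3 and at -0.11 and -1.47 in M8/F8. Those of Alb were -1.10 and -0.33 in M8/M3. Markers of blood-derived cells moved with some of these comparisons, and C/EBP beta is also present in myeloid cells. In M3/F3 5 of 8 neutrophil markers were lower in males and none was higher, and the summed signal of the list was 5230 to 5490 in M3 channels and 9120 to 11600 in F3 channels. From 3 to 8 wk 7 of 8 neutrophil markers fell in each sex, to summed signals of 1330 to 2060 in M8 and 1620 to 2350 in F8, and of the defining markers Ngp was well above background in no M8 channel. Kupffer cell markers had 2 of 6 lower in M8/M3 and none higher, with summed signals of 30300 to 34200 in M3 and 20000 to 25600 in M8. Over all tested genes 10% were lower in M8/M3 and 6.64% in F8/F3. In M8/F8, where Onecut2 was called, 3 of 6 Kupffer cell markers were lower in males (Marco at -1.05, Adgre1 at -0.65 and Clec4f at -0.59), against 3.74% of tested genes. Bile duct markers, a cell type in which Onecut1 is known to act, had 2 of 6 tested lower (Krt7 at -0.91, and Krt19, named after its value was seen, at -0.66) and 1 higher (Cftr at 1.42) in M8/M3. In F8/F3 1 of 7 was lower (Sox9 at -1.04) and 1 higher (Cftr at 1.12). Their summed signal was 6830 to 9320 in M3, 5590 to 6080 in F3, 5620 to 6700 in M8 and 4280 to 4570 in F8. In M8/M4 4 of 7 neutrophil markers tested and 2 of 6 Kupffer cell markers were lower. Of the erythroid markers, 3 of 6 tested were lower and 1 (Alas2, named after its value was seen, at 1.37) was higher in M8/M3, with the same counts in M8/M4. In F8/F3 4 of 7 were lower, and in M8/F8 1 of 4 was higher, again Alas2 (1.89). The summed erythroid signal was 4160 to 5580 in M3, 10100 to 12600 in M8 and 2220 to 4390 in F8. Of 6 stellate cell markers, 3 were lower in M8/M3 (among them Col1a1 at -2.25 and Col3a1 at -2.19) and 2 each in M8/M4 and F8/F3, with a summed signal of 76800 to 88000 in M3 and 38100 to 45300 in M8. Of 6 endothelial markers, Lyve1 was lower in M8/M3, M8/M4 and F8/F3. All 10 mitosis genes fell in each of the 4 age comparisons. The part of these cell types in the ratios of the 8 factors was not tested.

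The ratios of a replicate number were also combined into a level for each pool by least squares, relative to the mean of the 6 groups and after removal of the dye term. The pool values, their SDs and their overlaps rest on the same assumption that a replicate number stands for 1 pool of each group. How often the pools of other genes separate in such ways was not counted, so the overlaps are only descriptions of 2 pools per group. In this scale M3 and M4, or F3 and F4, are linked only through other groups, as they were never hybridized together. Cebpb was highest in M8 (0.53 ± 0.024, SD of 2 pools) and F8 (0.39 ± 0.13), whose pools did not overlap. F3 (-0.0077 ± 0.21) and F4 (-0.081 ± 0.066) followed and overlapped with each other, and M4 (-0.23 ± 0.057) and M3 (-0.60 ± 0.12) were below them without overlap. Cebpa split into 2 tiers. F8 (0.36 ± 0.050) and M8 (0.32 ± 0.020) overlapped, and so did all neighbours among F4 (-0.11 ± 0.076), M4 (-0.16 ± 0.031), M3 (-0.19 ± 0.12) and F3 (-0.22 ± 0.23), with no overlap between the tiers.

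For Onecut2 the order ran from F8 (0.56 ± 0.0016) through F4 (0.14 ± 0.051) and F3 (0.044 ± 0.12) to M8 (-0.15 ± 0.11), M3 (-0.24 ± 0.015) and M4 (-0.35 ± 0.071). All 6 female pools were above all 6 male pools, F4 overlapped with F3, and M8 overlapped with M3. The margin was narrow, with the lowest female pool (F3) at -0.0378 and the highest male pool (M8) at -0.0735. The F8 level rests in part on the M8/F8 array of replicate 1 described above. Onecut1 had M3 (0.54 ± 0.15) and F3 (0.51 ± 0.11) on top, which overlapped, and M4 (-0.19), M8 (-0.22), F4 (-0.25) and F8 (-0.39) in a lower tier in which each overlapped with its neighbour. Foxa1 went from M3 (0.30 ± 0.097), F3 (0.26 ± 0.12), M8 (0.17 ± 0.27) and M4 (-0.017 ± 0.026), which overlapped as neighbours, to F4 (-0.25 ± 0.094) and F8 (-0.46 ± 0.17), which did not. The levels of Foxa2 (-0.23 in M4 to 0.10 in F8), Foxa3 (-0.13 in F8 to 0.092 in F3) and Hnf4a (-0.082 in M3 to 0.077 in M8) spanned little, and most neighbours overlapped.

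**Figure D2:**
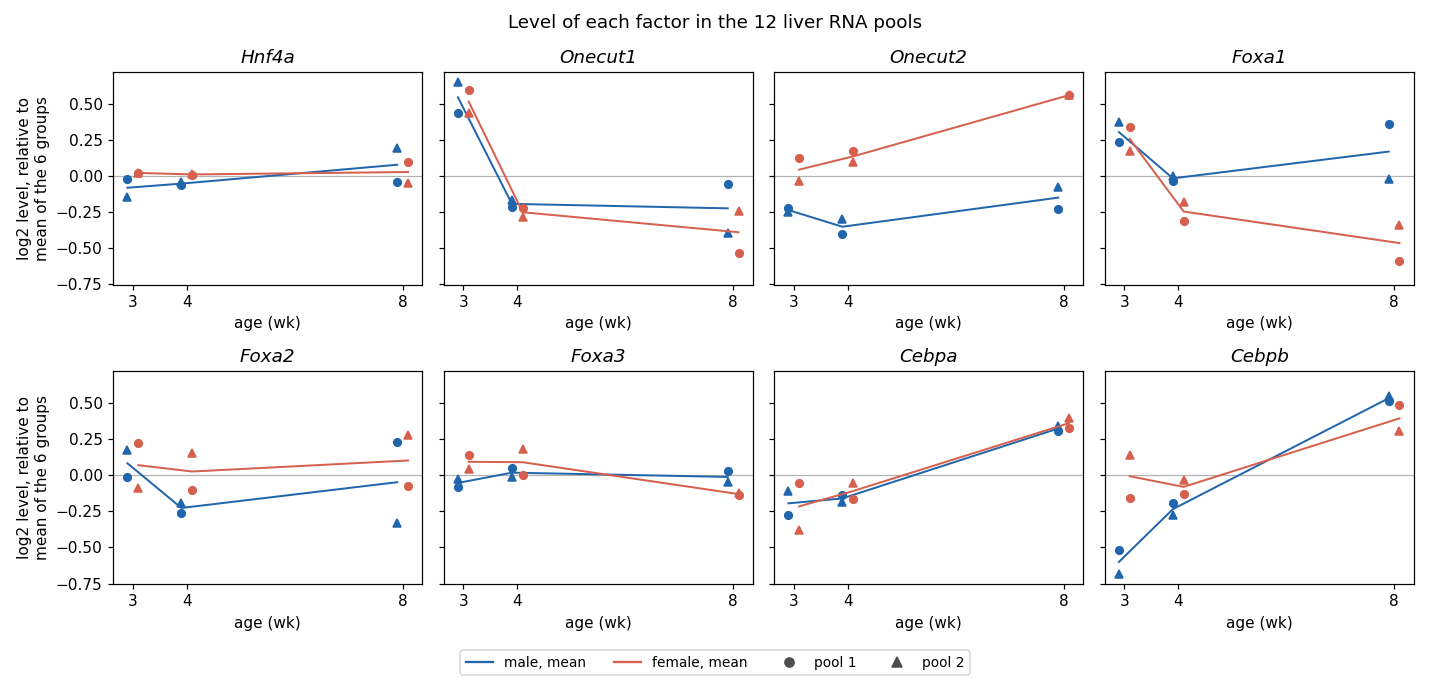
Level of each factor in the 12 liver RNA pools on a log2 scale relative to the mean of the 6 groups (vertical axis) by age in wk (horizontal axis). Circles and triangles are pools 1 and 2, and lines join the means of male (blue) and female (red) groups. The sexes run together for Cebpa and stay apart for Onecut2 (F8 at 0.56, M8 at -0.15). For the dim Onecut1 probe both sexes are drawn higher at 3 than at 4 wk. These ages are linked only through other groups, and their difference was not tested.

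The difference between the highest and the lowest group was 1.13 for Cebpb (2.19-fold), 0.93 for Onecut1, 0.91 for Onecut2, 0.77 for Foxa1, 0.57 for Cebpa, 0.33 for Foxa2, 0.22 for Foxa3 and 0.16 for Hnf4a. The median over 12305 genes was 0.38. The range of Cebpb was wider than that of 92% of these genes, that of Onecut1 wider than 88.5%, that of Onecut2 wider than 87.9% and that of Foxa1 wider than 82.8%. Foxa2 and Foxa3 were below the median, with 41.9% and 22.2% of genes having a smaller range. These ranges include the spread between pools, which was large for Foxa2.

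**Figure D3:**
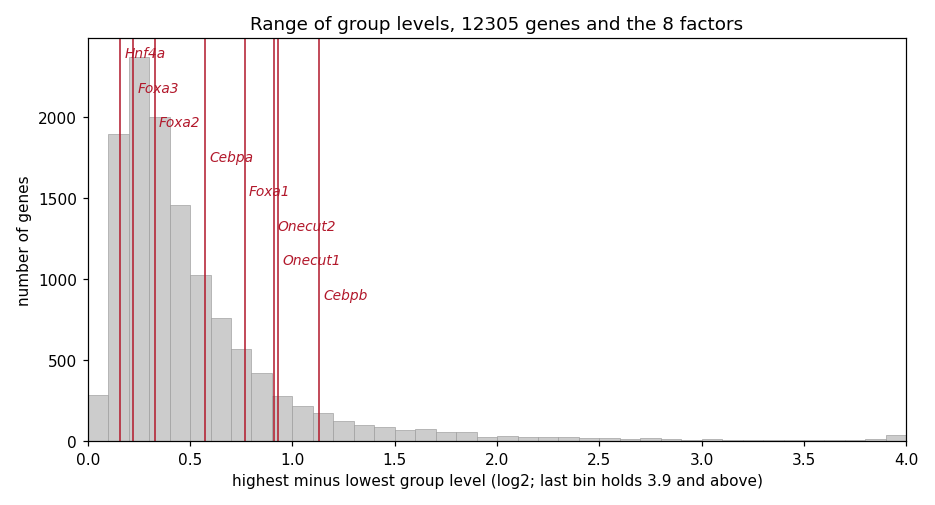
Number of genes (vertical axis) by the difference between the highest and the lowest of the 6 group levels on the log2 scale (horizontal axis) for 12305 genes above background in all channels. Red lines mark the 8 factors, with Hnf4a at 0.16 and Cebpb at 1.13 as the extremes of the set.

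Over the 14 arrays the ratios of Onecut1 and Foxa1 went together (Pearson's r = 0.815), as did those of Onecut2 and Cebpa (r = 0.787), and Onecut2 and Foxa1 went in opposite directions (r = -0.713). Arrays share pools, so the 14 points are not independent and these values are descriptions. The genes whose ratios were most like those of Onecut2, among 12305, were Cpq (r = 0.954), Il18 (r = 0.94) and Adk (r = 0.939). Those most like Cebpb included Amdhd2 (r = 0.97) and Saa4 (r = 0.965).

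Relatives of the 8 factors in the same protein families changed more than the factors themselves in some cases. Cux2, a cut-homeodomain protein of the same class as the Onecut factors that is known as a female-specific repressor in mouse liver, had ratios of -5.21 and -4.74 in M8/F8 and a mean of -4.98 (limma adjusted p = 0.000118). It was already lower in males at 4 wk (-3.07, adjusted p = 0.000447), fell with age in males (-3.14 in M8/M3) and rose in females (2.20 in F8/F3). Cebpe, a C/EBP gene of granulocytes, fell in M8/M3 (-2.81, adjusted p = 0.00317) and F8/F3 (-2.90, adjusted p = 0.00281), as the neutrophil markers did. Ddit3, which encodes the stress-induced C/EBP partner CHOP, fell in M8/M3 (-0.84, adjusted p = 0.00283), and Hnf4g, the paralog of Hnf4a, rose in M8/M4 (1.23, adjusted p = 0.0373). Of 7 relatives tested in both, 3 fell and none rose in M8/M3, and 1 rose and 1 fell in F8/F3. Of all tested genes 10% fell and 7.81% rose in M8/M3, and 5.08% rose and 6.64% fell in F8/F3. The median ratios of the relatives are given next. Their median was -0.37 for M8/M3 and -0.30 for F8/F3, with medians of all tested genes at 0.013 and 0.018.

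Among 19 other liver transcription factors, all of them tested in every comparison, none was called in a sex comparison or in the female age comparisons. At an unadjusted p below 0.05 limma gave 2, 7 and 5 of them in M3/F3, M4/F4 and M8/F8, 6 and 7 for the female ages F8/F3 and F8/F4, and 11 and 8 for the male ages M8/M3 and M8/M4. The shares of all tested genes at this threshold were those given above, 60% in M8/M3 being the highest. In M8/M3 Klf15, a regulator of amino acid use in fasting, rose (0.77, adjusted p = 0.000435), as did Zbtb20, a repressor of fetal liver genes (0.60, adjusted p = 0.00358), while Atf5 fell (-0.70, adjusted p = 0.00372). Klf15 rose (0.71) and Atf5 fell (-0.67) in M8/M4 as well. The median of the 19 was 0.32 for M8/M3 and 0.030 for F8/F3.

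Of 13 cofactors and modifiers of these factors, 2 rose in M8/M3, 3 in M8/M4, and 1 each in F8/F3 and F8/F4, and none fell with age. Of all tested genes 7.81%, 4.44%, 5.08% and 2.28% rose in these comparisons. Med1, a Mediator subunit that binds nuclear receptors, rose by 1.41 in M8/M3 (1.39 and 1.43 on its arrays, limma adjusted p = 0.000284) and by 1.39 in M8/M4, and its ratio was 0.87 in M8/F8. Its interaction of sex and age was called against 3 wk (0.99, adjusted p = 0.0114) and against 4 wk (0.92, adjusted p = 0.0265). Ppargc1a, a coactivator of HNF4A in fasting, was lower in males at 4 wk (-1.10, adjusted p = 0.0143) and rose in M8/M4 (0.81) and F8/F3 (0.82). Trib1, an adaptor that is known to promote degradation of C/EBP alpha, rose in M8/M3 (0.64), M8/M4 (0.93) and F8/F4 (0.89).

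Lists of known target genes of each family were examined in the same arrays, and several genes are on more than 1 list. Of 19 HNF4A targets tested, 2 rose in M8/M3, 4 rose in F8/F3 and none fell, with medians of 0.16 and 0.25. Over all tested genes 7.81% rose in M8/M3 and 5.08% in F8/F3, so the count in M8/M3 was near the background. Cyp8b1, an enzyme of bile acid synthesis, rose in M8/M3 (1.26 and 1.48, mean 1.37, limma adjusted p = 0.00126) and F8/F3 (0.75 and 0.81, mean 0.78). Cyp7a1, the rate-limiting enzyme of that pathway, was lower in males at 4 wk (-1.56) and 8 wk (-1.61) and rose in M8/M4 (1.38), F8/F3 (0.95) and F8/F4 (1.44). Apoa4, an apolipoprotein, rose in F8/F3 (1.19) and F8/F4 (0.88).

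Of 13 C/EBP targets, 4 rose and 1 fell in M8/M3, and 3 rose and none fell in F8/F3, with medians of 0.70 and 0.36, beside 0.013 and 0.018 for all tested genes. The shares of all tested genes were 7.81% up and 10% down in M8/M3, and 5.08% up and 6.64% down in F8/F3. Hamp, which encodes the iron hormone hepcidin, rose in M8/M3 (0.91 and 1.56, mean 1.24, limma adjusted p = 0.00486) and F8/F3 (1.35 and 2.14, mean 1.75, adjusted p = 0.00131), and it was lower in males at 8 wk (-0.92). The acute phase genes Orm1 and Orm2 rose in M8/M3 (0.82 and 0.80) and F8/F3 (0.81 and 0.83). Pck1, the gluconeogenic enzyme that is on the HNF4A and forkhead lists too, was lower in males at 3 wk (-1.21 and -1.18, mean -1.19, adjusted p = 0.0123) and rose in M8/M3 (1.13 and 1.58, mean 1.36, adjusted p = 0.00753). In M8/M4, where Cebpb was also called, none of the 13 C/EBP targets rose and 1 fell. Of all tested genes 4.44% rose there and 10.8% were called in either direction, so counts this small were near the background. Alb fell in M8/M3 (-0.71) and M8/M4 (-0.68), with replicates of -1.10 and -0.33 in the former.

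Of 8 forkhead targets, 1 rose and 1 fell in M8/M3, 1 fell in F8/F3 and 2 were lower in males at 3 wk. Over all tested genes 7.81% rose and 10% fell in M8/M3, 5.08% rose and 6.64% fell in F8/F3, and 0.337% were lower in M3/F3. Counts of 1 of 8 with age were near these shares. Igfbp1, an insulin-responsive binding protein, was lower in M3 than in F3 (-1.58 and -2.50, mean -2.04, limma adjusted p = 0.0481), and Afp, the fetal albumin relative, fell in F8/F3 (-1.29 and -3.24, mean -2.26, adjusted p = 0.0353). Of 8 Onecut targets, none rose and 1 fell in M8/M3, and 2 rose and 1 fell in F8/F3. Pfkfb1, a bifunctional enzyme of glycolysis control, fell in M8/M3 (-0.94, adjusted p = 0.00215) and F8/F3 (-0.70, adjusted p = 0.00662). Slc2a2, the hepatocyte glucose transporter, and Cyp7a1, which is on the Onecut list too, rose in F8/F3 (0.75 and 0.95). The medians of the forkhead and Onecut lists were 0.053 and -0.18 in M8/M3 and -0.21 and -0.067 in F8/F3. The lists were not tested as sets.

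**Figure D4:**
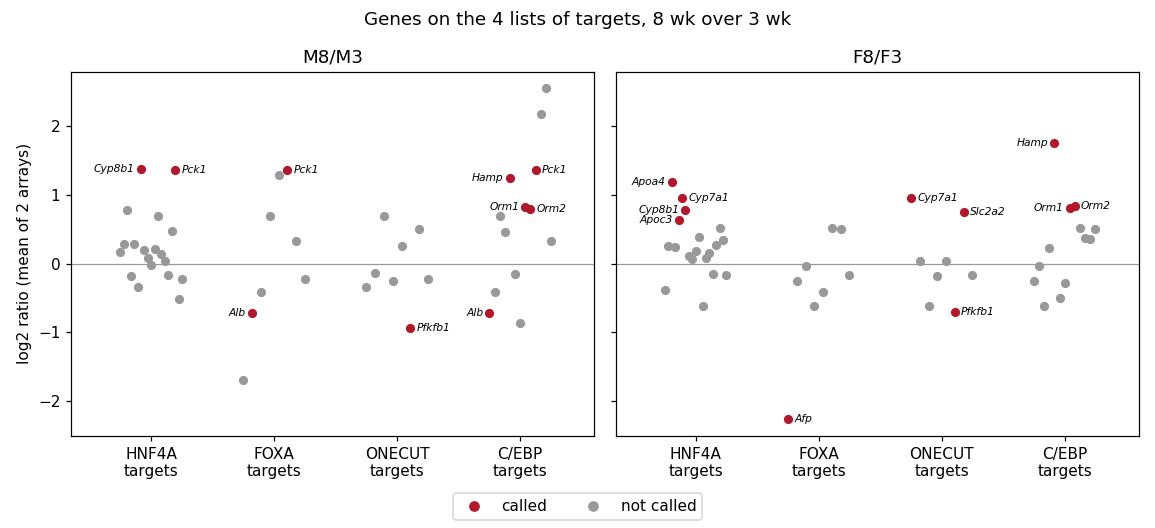
Log2 expression ratio (vertical axis, mean of 2 arrays) of each gene on the lists of HNF4A, forkhead (FOXA), Onecut and C/EBP targets in M8/M3 (left) and F8/F3 (right). Each point is a gene, red points were called and carry their name, and a gene on several lists is drawn in each. Called HNF4A targets are all above 0, and Hamp, Orm1 and Orm2 are above 0 in both sexes.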

How the data were processed

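Total liver RNA pools were hybridized to 14 two-colour Agilent arrays, 2 per comparison with exchanged dyes. The authors deposited, per the file headers, log10 ratios and processed intensities that Feature Extraction had background-subtracted and normalized by linear and LOWESS steps, with an error of each ratio as a score and spot flags. Ratios were converted to log2, turned male over female or 8 wk over younger by the dyes in the labels, averaged per probe without control or non-uniform spots, and fitted in limma 3.58.1 (R 4.3.3) with 7 comparison terms and a dye term. P-values were adjusted by Benjamini-Hochberg over 39429 probes and 7 comparisons together, and within each interaction. A call needed an adjusted p below 0.05, a change above 1.5-fold, and 1 group well above background on both arrays. The scripts were tested on simulated data.

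All 8 factors are reported, by their brightest probe, with at most 4 called genes from each further list (the largest ratios) and the 3 genes most like each called factor, of which 1 is not reported here. The factors and lists were chosen with earlier results of these data known. The value table of the series equalled the scanner log10 ratios and was not used further. The number of arrays limits precision, and p-values measure the spread between replicate arrays, which the main fit took as independent. If a replicate number stands for 1 pool of each group, the same pools recur between comparisons. An estimated 89.2% of the variance of a ratio then came from the pools. SEs and p-values of the main fit do not allow for this, while the setting with shared pools as a covariance does. Alternatives covered background correction, centring, dye, replicate, slide and pool terms, error weighting, thresholds, filters, probes and each array left out.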

Additional observations from a re-analysis of the deposited data

Results flagged for a closer look

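The measured sex ratios of Cebpb lay on different sides of 0 at the younger ages and at 8 wk. Both arrays lay below 0 in M3/F3 and in M4/F4 and above 0 in M8/F8, so that M8/F8 minus M3/F3 was 0.751 (limma adjusted p = 0.125) and M8/F8 minus M4/F4 was 0.30 (adjusted p = 0.669). Foxa3 did likewise between 3 and 8 wk, with M8/F8 minus M3/F3 at 0.251 (adjusted p = 0.279). None of these 3 differences passed its test. If a replicate number stands for 1 pool of each group, the other arrays imply sex ratios of Cebpb at 8 wk. These were -0.055 (by way of 3 wk) and -0.041 (by way of 4 wk) for replicate 1, and 0.27 and 0.33 for replicate 2. The change of side was therefore not borne out by the implied ratios of replicate 1.

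For genes of the further lists, the test of the difference between the male and the female age change passed in 7 cases. Med1 rose more in males, by 0.9856 against 3 wk (limma adjusted p = 0.0114) and 0.918 against 4 wk (adjusted p = 0.0265). Cux2 went in opposite directions, with -5.339 against 3 wk (adjusted p = 0.00133) and -2.662 against 4 wk (adjusted p = 0.0163). S100a8, a neutrophil marker, had a difference of 0.7205 against 3 wk (adjusted p = 0.0213). The other 2 cases fall outside the rule for named genes and are named after their values were seen. They were Pklr, an HNF4A target, at -0.85 (adjusted p = 0.0281), and Alas2, an erythroid marker, at 1.64 (adjusted p = 0.0134), both against 3 wk.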

How the results depend on the processing

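The counts of called factors in M4/F4, F8/F4 and both interactions were 0 in every setting, and those in the other 5 comparisons moved in some. In M3/F3 the count fell from 1 to 0 with the replicate block and with the slide block, and in M8/F8 it rose to 2 with normexp and loess and with error weighting, Foxa1 being added. In M8/F8 the count stayed at 1 with shared pools as a covariance, but the gene was Foxa1 and not Onecut2. In M8/M3 it rose to 2 with error weighting, with adjustment over probes well above background, with the fit over those probes (chosen after seeing the data), each adding Onecut1, and without a fold threshold, adding Cebpa. In F8/F3 it rose from 0 to 1 with normexp and loess, with centring, without the dye term and with shared pools, and to 2 with error weighting, no fold threshold, adjustment over probes well above background and the fit over those probes. Leaving out each of the 14 arrays gave 0 to 1 in M3/F3, 0 to 2 in M8/M3, 0 to 1 in M8/M4 and 0 to 1 in F8/F3.

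The labels do not state which pool each array used. Deviations of replicates correlated between -0.53 and 0.679 over 21650 probes, and in all 10 pairs of comparisons that share a group the sign was that of a shared pool. Apart from M3/F3 (Cebpb, adjusted p = 0.0538), the replicate block moved no count of the 8 factors. On the second scan day dye and replicate were the same contrast, so 1 term stood for both in the slide block.

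Direction changed only for ratios that were not called. Under normexp and loess Hnf4a was 0.042 in F8/F4, Onecut1 0.017 and Foxa2 -0.018 in M3/F3, and Cebpa 0.0025 in M8/M3 minus F8/F3. With centring Hnf4a was -0.019 in F8/F3. The other Foxa2 probe gave -0.059 in M3/F3 and -0.064 in F8/F3. Over the arrays left out in turn, Hnf4a ranged from -0.16 to 0.21 in M8/F8, -0.083 to 0.40 in M8/M3, -0.11 to 0.13 in F8/F3, -0.10 to 0.086 in F8/F4 and -0.091 to 0.39 in M8/M3 minus F8/F3. Onecut1 ranged from -0.33 to 0.32 in M3/F3, -0.25 to 0.61 in M8/F8, -0.27 to 0.26 in M8/M4, -0.41 to 0.083 in F8/F4, -0.16 to 0.27 in M8/M3 minus F8/F3 and -0.11 to 0.42 in M8/M4 minus F8/F4. Onecut2 ranged from -0.22 to 0.032 in M8/M4 minus F8/F4. Foxa1 ranged from -0.14 to 0.21 in M3/F3, -0.45 to 0.16 in M8/M3 and -0.053 to 0.45 in M8/M4. Foxa2 ranged from -0.28 to 0.29 in M3/F3, -0.67 to 0.38 in M8/F8, -0.58 to 0.30 in M8/M3, -0.19 to 0.55 in M8/M4, -0.36 to 0.43 in F8/F3, -0.62 to 0.27 in M8/M3 minus F8/F3 and -0.27 to 0.48 in M8/M4 minus F8/F4. Foxa3 ranged from -0.22 to 0.10 in M4/F4, -0.032 to 0.12 in M8/M3 and -0.041 to 0.0019 in M8/M4. Cebpa ranged from -0.28 to 0.31 in M3/F3, -0.14 to 0.023 in M4/F4, -0.064 to 0.015 in M8/F8, -0.29 to 0.16 in M8/M3 minus F8/F3 and -0.052 to 0.044 in M8/M4 minus F8/F4. The cause of these changes was not tested. No named gene of the further lists changed direction in any setting, but 67 of their 155 calls were lost in at least 1 of 26 settings. Of those in the report, Hnf4g in M8/M4 and Igfbp1 in M3/F3 were lost in 14, Afp in F8/F3 in 13, Ppargc1a (M8/M4, F8/F3) and Med1 (M8/M4 minus F8/F4) in 12, Apoa4 in F8/F4 in 11 and Sox9 in F8/F3 in 10.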
